A study of Danio rerio with 12 samples.

Results

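The heart programme was followed in zebrafish embryos that fail to make red blood cells, through 10 genes: the contractile genes myl7, vmhc, myh6 and tnnt2a, the hormone gene nppa, and the regulators nkx2.5, gata4, gata5, hand2 and tbx5a. They were chosen by name as genes of heart muscle and heart formation, and the values asked whether they differ in embryos without red blood cells. Of the 10 names, 9 were tied to 1 gene ID each among the 32520 IDs counted, and all 9 passed the filter on low counts. The name vmhc could not be tied to 1 ID. The RefSeq gene table lists vmhc as an older name of myh7, while 1 ID carries the symbol MYH7 and 2 IDs carry MYH6 in capitals, a symbol borrowed from an orthologue. These 3 IDs are described under their symbol and ID, outside the counts of the 9. The symbol TNNT2 was shared by 2 IDs, one of which held 0 to 4 counts in any library, and the other is given as tnnt2a.

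In the moonshine line (mon) trim33 is mutated, which codes for TIF1γ, a cofactor of transcription, and mutant embryos lack red blood cells. Its embryos were compared with siblings labelled wild-type/het, which may carry 1 mutant allele, so they are not a pure wild-type baseline. All embryos came from matings of heterozygous mon fish of which 1 parent carried a drl:EGFP reporter, and the groups were sorted by its weak or normal fluorescence shortly before the first collection. Each library was a pool of 30 whole embryos of 1 phenotype from 1 clutch, and both phenotypes were collected at 22 and 30 hours post fertilization (hpf), which gave 4 groups with 3 libraries apiece. Clutches 9, 11 and 13 gave the libraries of 22 hpf, and clutches 3, 4 and 9 those of 30 hpf. Library totals ran from 18233320 to 23135676 counts. The 8 red blood cell markers summed to 8.04 to 11.0 counts-per-million (CPM) in mon and 237 to 280 CPM in siblings at 22 hpf, and to 11.1 to 13.9 against 1537 to 1709 CPM at 30 hpf. The transcript of trim33 (listed as TRIM33) fell by 0.56 ± 0.08 on the log2 scale at 22 hpf (edgeR, adjusted p = 0.00129), and its log2 fold change at 30 hpf was -0.08 ± 0.08 (edgeR, adjusted p = 1.0).

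In the zebrafish, heart precursors on both sides of the embryo move to the midline, fuse, and form a tube that starts to beat and pump at about the stages sampled. The regulators switch on sets of muscle genes in these precursors. The transcription factors act in a network: the GATA factors and nkx2.5 mark the precursors, hand2 is needed to make enough heart muscle cells, and tbx5a acts in the heart and the pectoral fin. Contractile genes then build the sarcomere, with separate myosin heavy chains for atrium and ventricle. The hormone gene nppa is turned on as the chambers form. Several of the regulators also work outside the heart, gata4 and gata5 in the endoderm and hand2 in the pharyngeal arches and fin bud, so their levels in whole embryos are not those of the heart alone. In such pools, fewer heart cells and less RNA per heart cell cannot be told apart.

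None of the 9 genes was called different between mon and siblings at either stage. A gene was called at a Benjamini-Hochberg adjusted p under 0.05 in edgeR's quasi-likelihood test. At that threshold 0 of the 9 were called at 22 hpf, where 0.445% of all 21778 tested genes were called, and 0 of 9 at 30 hpf, where 0.79% were. With few genes called anywhere, a count of 0 among 9 is close to this background. At an unadjusted p under 0.05 the counts were 1 of 9 at 22 hpf and 0 of 9 at 30 hpf, beside 4.29% and 5.56% of all genes. DESeq2 and limma-voom each called 0 of 9 at both stages too, as did edgeR with clutch as a block, which called 1.48% of all genes at 22 hpf and 3.09% at 30 hpf. The median log2 fold change of the 9 was -0.10 at 22 hpf and -0.02 at 30 hpf, beside 0.00 for all genes at each stage. Of the 9, 6 had a log2 fold change below 0 and 3 above it at 22 hpf, and 5 and 4 at 30 hpf. Summed over the 9, levels ran from 66.7 to 71.0 CPM in mon and 64.5 to 71.9 CPM in siblings at 22 hpf, and from 90.9 to 93.8 against 91.4 to 93.7 CPM at 30 hpf. At 22 hpf gata5 weighs most in this sum, with means of 30.2 CPM in mon and 26.2 CPM in siblings. The sum is therefore not an even reading of the 9. Log2 fold changes are mon over sibling with their standard error unless said otherwise, and values by library are listed by ascending clutch number.

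**Figure D1:**
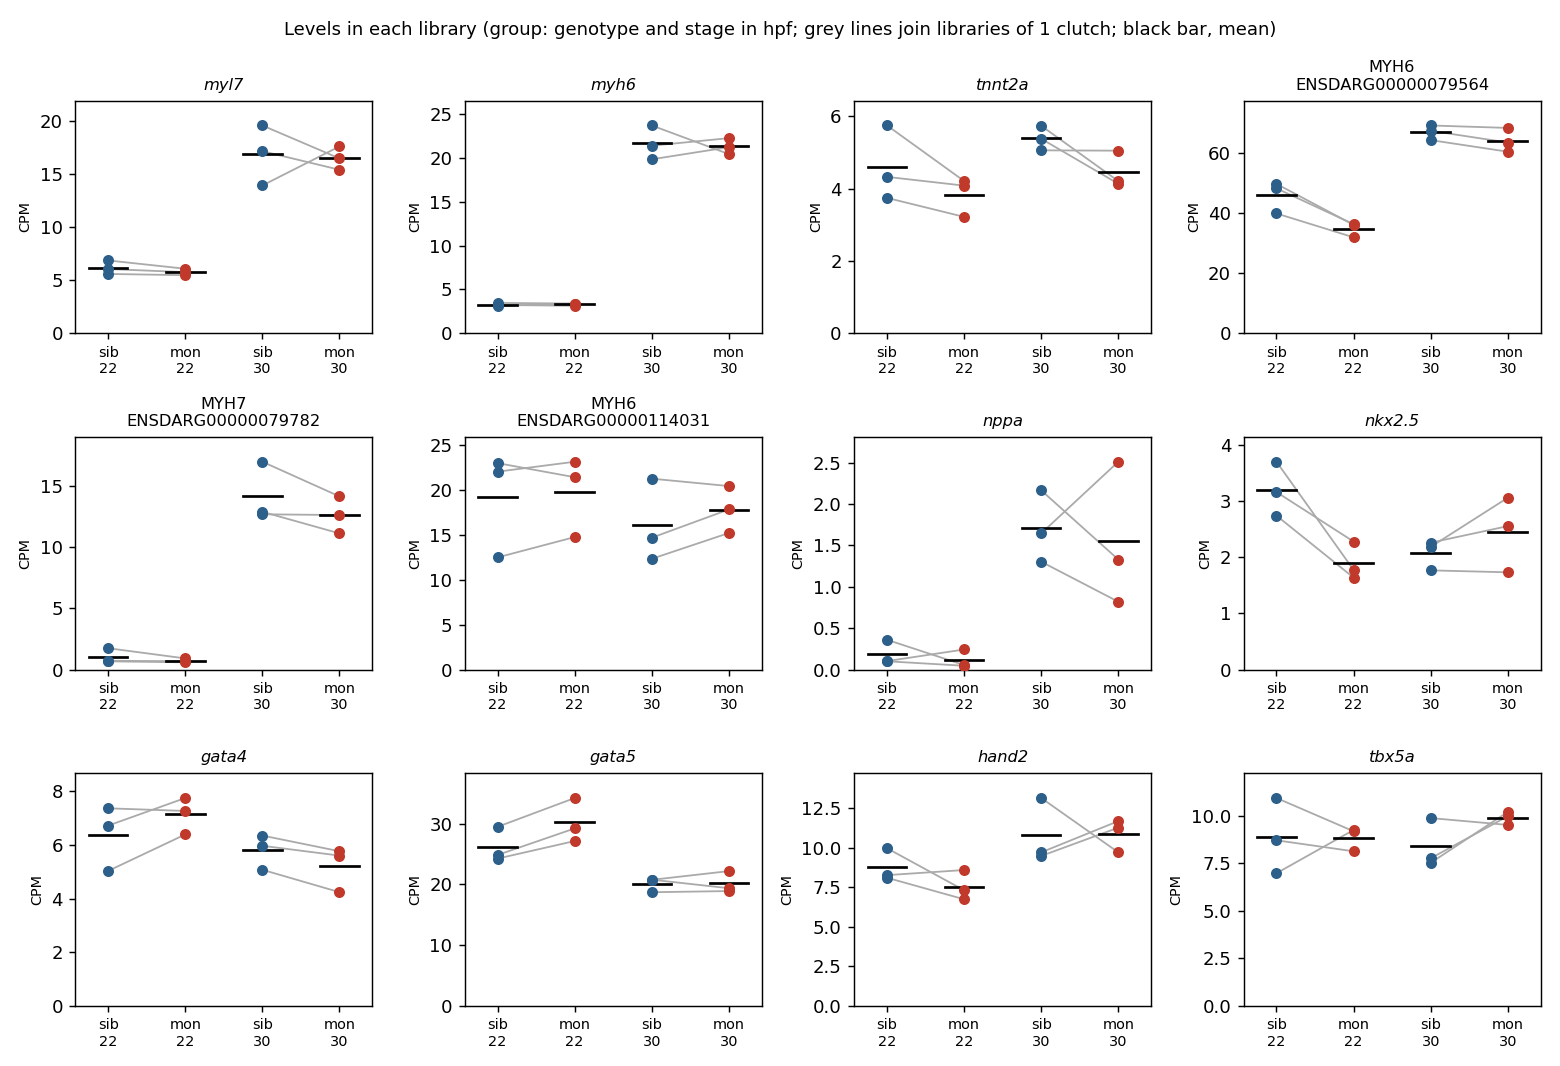
Level in counts-per-million (CPM, linear axis from 0) of the 9 heart genes and of the 3 IDs under MYH6 and MYH7, in each of 12 libraries. Columns are siblings (blue) and mon (red) at 22 and 30 hpf, grey lines join libraries of the same clutch and black bars are means. At 22 hpf the mon points of nkx2.5 and of MYH6 ENSDARG00000079564 lie below all sibling points, and myl7 and myh6 differ far more between stages than between genotypes.

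None of the contractile genes myl7, myh6 and tnnt2a was called between the genotypes. The gene of the regulatory myosin light chain of heart muscle, myl7 (ENSDARG00000019096), stood at 5.76, 6.08 and 5.48 CPM in mon and 6.06, 6.87 and 5.59 CPM in siblings at 22 hpf. At 30 hpf the levels were 15.4, 17.6 and 16.5 CPM in mon and 17.2, 13.9 and 19.6 CPM in siblings. The groups overlapped at both stages. The fold of mon over sibling was 0.936 (95% interval 0.752 to 1.17) at 22 hpf and 0.977 (0.803 to 1.19) at 30 hpf. At 22 hpf mon was the lower library in all 3 clutches, by 0.03 to 0.17 on the log2 scale, and at 30 hpf it was lower in 2 of 3.

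For myh6 (ENSDARG00000090637), the myosin heavy chain of the atrium, the mon libraries held 3.39, 3.13 and 3.38 CPM at 22 hpf and the sibling libraries 3.46, 3.23 and 3.13 CPM. At 30 hpf they held 20.4, 22.3 and 21.2 CPM in mon and 23.7, 21.4 and 19.8 CPM in siblings. These are the closest values among the 9 genes at 30 hpf after gata5 and hand2, and the groups overlapped at both stages. The fold was 1.01 (95% interval 0.822 to 1.23) at 22 hpf and 0.984 (0.839 to 1.15) at 30 hpf.

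Cardiac troponin T, the product of tnnt2a (ENSDARG00000020610), anchors the calcium-sensing troponin complex to the thin filament, and fish without it have a heart that does not beat. Its transcript stood at 4.21, 4.09 and 3.22 CPM in mon and 5.75, 4.33 and 3.75 CPM in siblings at 22 hpf. At 30 hpf the levels were 4.14, 5.05 and 4.21 CPM in mon and 5.38, 5.06 and 5.74 CPM in siblings, so that the groups just failed to overlap. Within clutches tnnt2a was lower in mon in 3 of 3 at 22 hpf, with differences of -0.45 to -0.083 on the log2 CPM scale, and in 3 of 3 at 30 hpf, with differences of -0.45 to -0.00266. Log2 fold changes were -0.26 ± 0.20 at 22 hpf and -0.27 ± 0.20 at 30 hpf (edgeR, adjusted p = 1.0 for both). The exact two-sided permutation test over libraries gave p = 0.1 at 30 hpf, the smallest that 3 against 3 allow. Groups without overlap were found for 12.3% of all genes at that stage, and for 1 of these 9.

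Of the 3 IDs that vmhc could stand for, none was called in the 4-group fit and 1 was close to the threshold. ENSDARG00000079564, listed under MYH6, stood at 36.0, 31.9 and 36.2 CPM in mon and 49.6, 39.8 and 48.1 CPM in siblings at 22 hpf. Every mon library lay below every sibling library, where 8.45% of all genes had groups without overlap. Within all 3 clutches mon was lower, by 0.46, 0.32 and 0.41 on the log2 scale for clutches 9, 11 and 13. The fold was 0.757 (95% interval 0.666 to 0.860). In the 4-group fit its log2 value, -0.40 ± 0.09, missed the threshold (adjusted p from edgeR of 0.0574). Adding clutch as a block left the size at -0.40 ± 0.06 and made it a call (adjusted p from edgeR of 2.91e-06).

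Whether ENSDARG00000079564 was called at 22 hpf depended on the test and the libraries. DESeq2 called it (adjusted p = 0.0137), as did edgeR without a filter on low counts (0.0286) and without the sibling library of clutch 11 (log2 -0.49, adjusted p = 0.00849). On all 12 libraries it was not called by limma-voom (adjusted p = 0.158) or by edgeR with DESeq2 size factors (0.0598). On fewer libraries edgeR did not call it from the 6 of the stage (adjusted p = 0.342) or without clutch 9 (0.568). Nor was it called without any other single library, where edgeR's adjusted p lay between 0.0906 and 0.349. The log2 fold change stayed between -0.49 and -0.34 in all of these. At 30 hpf the gene stood at 68.2, 63.4 and 60.3 CPM in mon and 69.0, 67.3 and 64.2 CPM in siblings, and the groups overlapped. The difference on the log2 scale was then -0.06 ± 0.09, not called (adjusted p from edgeR of 1.0).

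The change of this effect between the stages was 0.34 ± 0.12 on the log2 scale. It did not pass the test (adjusted p from edgeR of 1.0), and passed once clutch was a block (adjusted p from edgeR of 0.0397). Clutch pairing rests on the labels, since mon and sibling pools of 1 clutch are offspring of 1 mating. For the difference between stages the block called 0.482% of all genes.

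ENSDARG00000079782, listed under MYH7, was barely counted at 22 hpf, with 11 to 20 counts per library in mon and 13 to 35 in siblings. At 30 hpf it stood at 11.1, 14.2 and 12.6 CPM in mon and 12.9, 17.0 and 12.7 CPM in siblings. Its log2 fold changes were -0.51 ± 0.35 and -0.17 ± 0.21 (edgeR, adjusted p = 1.0 for both). The value at 22 hpf rests on the sibling library of clutch 11, and without it the log2 fold change was 0.08. The other MYH6 ID, ENSDARG00000114031, ranged from 12.3 to 23.1 CPM over all 12 libraries with overlapping groups. Reads of near-identical myosin copies may be shared or lost in counting, so the levels of single myosin genes are uncertain.

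A ratio of 2 genes within a library does not depend on its depth. Counts of ENSDARG00000079564 per count of myh6 were 10.6, 10.2 and 10.7 in mon and 14.3, 12.3 and 15.4 in siblings at 22 hpf. All 3 mon ratios were below all 3 sibling ratios (exact two-sided permutation test of the log2 ratio, p = 0.1, the smallest possible). Since myh6 differed little between the genotypes at 22 hpf (log2 0.01 ± 0.14), the ratio repeats the difference of ENSDARG00000079564 and is not separate support. At 30 hpf the ratio was 3.01 ± 0.285 in mon and 3.10 ± 0.166 in siblings (SD, n = 3; exact permutation p = 0.8). With ENSDARG00000079782 in its place the ratios overlapped at both stages (exact permutation p = 0.5 at each).

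**Figure D2:**
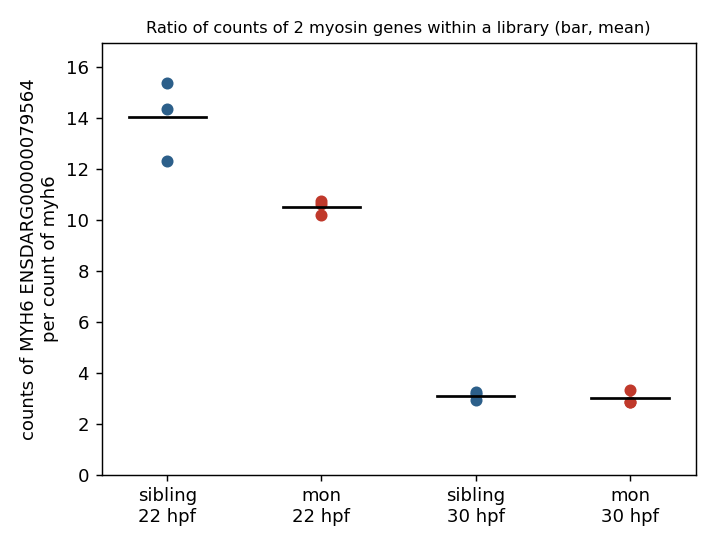
Counts of MYH6 ENSDARG00000079564 divided by counts of myh6 in each library (points; black bars are means of 3), for siblings (blue) and mon (red) at both stages, on a linear axis from 0. The ratio is 10.2 to 10.7 in mon and 12.3 to 15.4 in siblings at 22 hpf, and close to 3 in all libraries at 30 hpf.

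The hormone gene nppa (ENSDARG00000052960), which codes for a natriuretic peptide of the heart, was at the edge of detection at 22 hpf. It had 1 to 5 counts per library in mon and 2 to 7 in siblings. The 95% interval of the fold ran from 0.185 to 2.11, so the fold is poorly known at this depth. At 30 hpf it stood at 2.51, 0.820 and 1.33 CPM in mon and 1.65, 1.30 and 2.17 CPM in siblings. The highest and the lowest value both came from mon, and the interval of the fold ran from 0.449 to 1.84.

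Among the regulators nkx2.5 (ENSDARG00000018004), the homeodomain factor of heart precursors, had the lowest unadjusted p of the 9 at 22 hpf. It stood at 2.28, 1.63 and 1.77 CPM in mon and 3.16, 2.74 and 3.70 CPM in siblings. The groups did not overlap, and mon was lower within each clutch. Groups without overlap were found for 8.45% of all genes at 22 hpf, and nkx2.5 was the only such gene of the 9.

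The fold of nkx2.5 at 22 hpf was 0.594 (95% interval 0.401 to 0.877), from 33 to 72 counts per library. The log2 fold change of -0.75 ± 0.27 did not pass the test over all genes (edgeR, adjusted p = 0.692, unadjusted p = 0.0119). It failed in the block fit too (adjusted p from edgeR of 0.174), and leaving out single libraries gave -0.91 to -0.64. At 30 hpf the levels were 3.05, 2.55 and 1.73 CPM in mon and 2.18, 2.26 and 1.76 CPM in siblings, which overlapped. On the log2 scale mon differed by 0.24 ± 0.27 at that stage (adjusted p from edgeR of 1.0). The difference of the effect between stages, 0.99 ± 0.38 on the log2 scale, was not called (edgeR, adjusted p = 1.0, and 0.36 with the block).

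The other regulators overlapped between the genotypes at both stages. The zinc finger factor gata5 (ENSDARG00000017821) stood at 27.1, 29.2 and 34.2 CPM in mon and 24.2, 24.8 and 29.5 CPM in siblings at 22 hpf. It was higher in mon within each clutch, by 0.16, 0.23 and 0.22 on the log2 scale, and the log2 fold change of 0.20 ± 0.11 was not called (edgeR, adjusted p = 1.0, and 0.369 with the block). At 30 hpf its mean was 20.1 CPM in both groups. The related factor gata4 (ENSDARG00000098952) averaged 7.13 ± 0.689 CPM in mon against 6.37 ± 1.21 CPM in siblings at 22 hpf, and at 5.20 ± 0.838 and 5.80 ± 0.655 CPM at 30 hpf (SD, n = 3). Within the clutches of 30 hpf gata4 was lower in mon in 3 of 3, by 0.09 to 0.26 on the log2 scale.

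The basic helix-loop-helix factor hand2 (ENSDARG00000008305) averaged 7.54 ± 0.948 CPM in mon against 8.77 ± 1.03 CPM in siblings at 22 hpf. At 30 hpf the means were 10.9 ± 1.04 and 10.8 ± 2.05 CPM (SD, n = 3). For the T-box factor tbx5a (ENSDARG00000024894) they were 8.85 ± 0.629 and 8.87 ± 1.98 CPM at 22 hpf, and 9.90 ± 0.347 and 8.38 ± 1.30 CPM at 30 hpf. The log2 fold changes of tbx5a were 0.00 ± 0.17 and 0.24 ± 0.16, neither called (edgeR, adjusted p = 1.0). Other tissues that use these factors were read by list. At either stage edgeR called 0 of 7 gut endoderm, 0 of 9 pharyngeal arch and 0 of 5 sympathetic and enteric neuron genes. Of all genes 0.445% were called at 22 hpf and 0.79% at 30 hpf, so counts of 0 are close to this background. At an unadjusted p under 0.05 the endoderm and neuron lists had 0 genes at either stage. The arch list had 1 at 22 hpf and 0 at 30 hpf, beside 4.29% and 5.56% of all genes. In the fin bud list, given below, 0 of 7 genes were called at 22 hpf and 3 of 7 at 30 hpf. Its counts at an unadjusted p under 0.05 were 3 and 4.

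**Figure D3:**
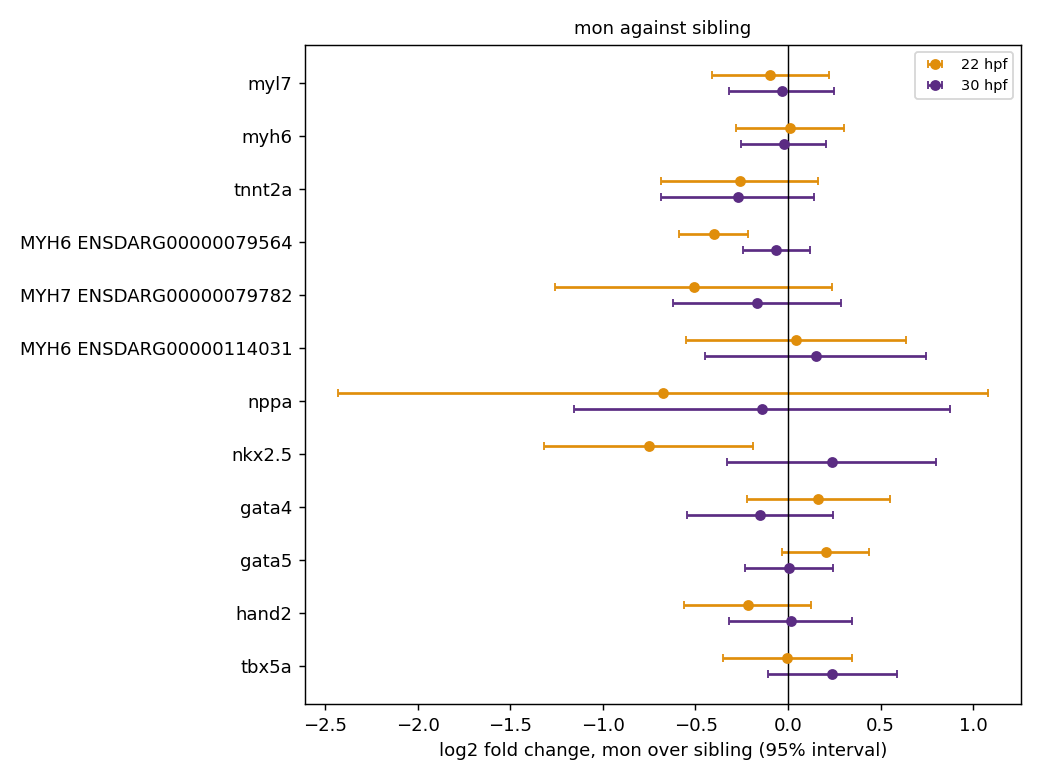
Log2 fold change of mon over sibling with its 95% interval (edgeR, all 12 libraries in 1 fit) for the 9 heart genes and the 3 myosin IDs, at 22 hpf (orange) and 30 hpf (purple). The intervals of nkx2.5 and MYH6 ENSDARG00000079564 at 22 hpf lie below 0, all others include 0, and those of nppa are the widest.

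Between 22 and 30 hpf myh6, myl7 and nppa rose in both genotypes, by more than any of the 9 genes differed between mon and siblings. The atrial myosin gene myh6 rose by 2.72 ± 0.13 in siblings and 2.69 ± 0.13 in mon, as log2 (adjusted p from edgeR of 2.17e-11 and 2.85e-11). The light chain gene myl7 rose by 1.45 ± 0.14 in siblings and 1.51 ± 0.14 in mon (2.82e-07 and 1.96e-07). The hormone gene nppa rose by 3.15 ± 0.61 in siblings and 3.69 ± 0.66 in mon, from a few counts (adjusted p from edgeR of 0.000431 and 0.000203). No stage change was called for tnnt2a in either genotype (log2 0.23 ± 0.20 and 0.22 ± 0.20).

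Of the regulators gata5 fell with stage, by 0.38 ± 0.11 in siblings and 0.58 ± 0.11 in mon as log2 (adjusted p from edgeR of 0.0105 and 0.000419). The call in siblings was lost without the sibling library of clutch 13 at 22 hpf (edgeR, adjusted p = 0.0648). The gene hand2 rose in mon by 0.53 ± 0.16 (edgeR, adjusted p = 0.0136), and in siblings its log2 change was 0.30 ± 0.16 (adjusted p = 0.15). Its call in mon was lost without the mon library of clutch 9 at 22 hpf (edgeR, adjusted p = 0.0507), without that of clutch 3 at 30 hpf (0.0515) and without clutch 9 (0.113). For nkx2.5 the log2 change was -0.63 ± 0.26 in siblings and 0.36 ± 0.27 in mon (edgeR, adjusted p = 0.0662 and 0.304). In the block fit the sibling value was -1.10 ± 0.37 and was called (adjusted p from edgeR of 0.0111), and the mon value was -0.12 ± 0.37. Only clutch 9, sampled at both stages, links the stages in that fit, and 4 residual degrees of freedom remain. Between the libraries of clutch 9 nkx2.5 changed by -0.83 in siblings and -0.39 in mon on the log2 CPM scale.

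Of the 9 genes 4 were called with stage in siblings and 5 in mon, where 43.1% and 42.3% of all genes were called, so that these shares are near the background. With clutch as a block the counts were 5 and 5 of 9, where 42.7% and 41.4% of all genes were called. For the myosin IDs, ENSDARG00000079564 rose by 0.54 ± 0.09 in siblings and 0.88 ± 0.09 in mon, and ENSDARG00000079782 by 3.76 ± 0.27 and 4.10 ± 0.29 (edgeR, each called). The comparisons with stage use the same libraries as those with genotype, and clutch 9 alone was sampled at both stages. Between its libraries myh6 was higher at 30 hpf by 2.51 in siblings and 2.64 in mon on the log2 CPM scale, and myl7 by 1.69 and 1.51. In the fit with the block, too, clutch 9 alone links the stages, so its stage values and calls are not separate from those of clutch 9. That fit gave 2.60 ± 0.19 and 2.57 ± 0.19 for myh6, and 1.57 ± 0.18 and 1.64 ± 0.18 for myl7. The mon effect was not called different between the stages for any of the 9 genes (0 of 9, beside 0.0872% of all genes). At an unadjusted p under 0.05 the count for this difference was 1 of 9, beside 3.21% of all genes. DESeq2, limma-voom and the block each called 0 of 9 for it.

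**Figure D4:**
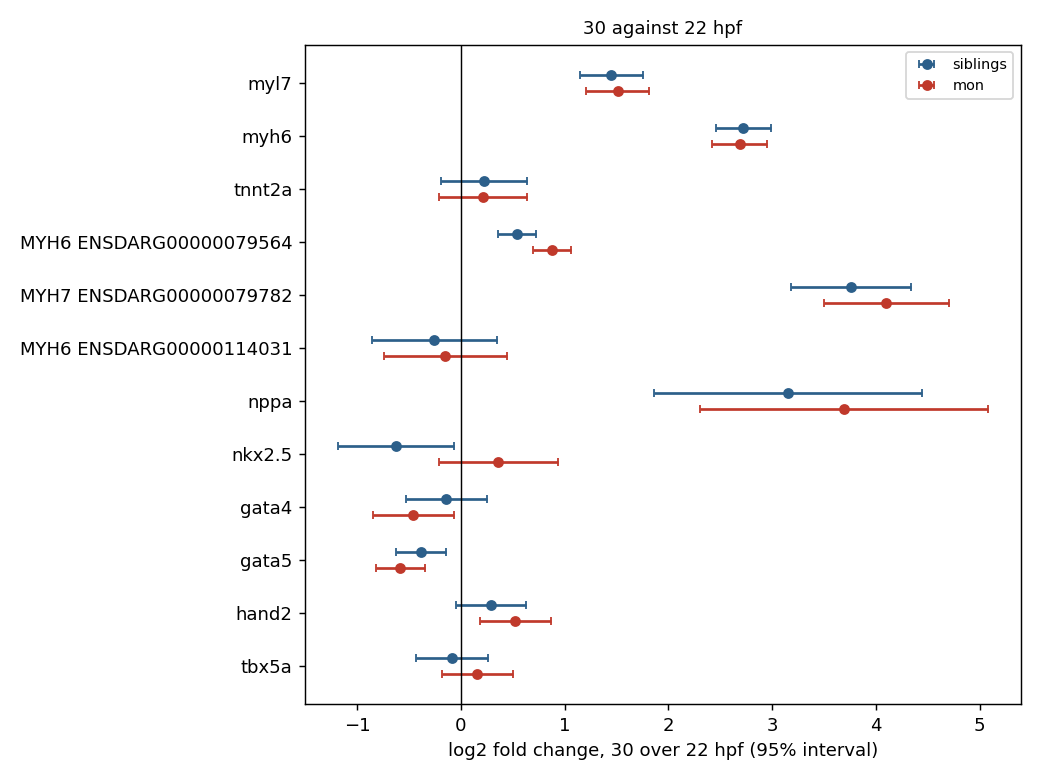
Log2 fold change of 30 over 22 hpf with its 95% interval (edgeR) in siblings (blue) and in mon (red) for the same genes. The values of myh6 (2.72 and 2.69) and myl7 (1.45 and 1.51) nearly coincide between the genotypes. Those of nkx2.5 lie on opposite sides of 0 (-0.63 and 0.36), and neither was called.

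Over all 12 libraries the levels of myl7 and myh6 followed each other with a Pearson r of 0.982. Both genes rose with stage, and 2547 of 18520 genes with a mean of at least 1 CPM followed myh6 above 0.9. The genes most like myh6 were ldb3b, TNNT3 (ENSDARG00000068457) and cmya5, all with an r of 0.998. For nkx2.5 none reached 0.9, and the closest were id2b, cox7a1 and zgc:195170 with r of 0.819, 0.816 and 0.804. The closest gene was RAMP1 for myl7 (r 0.994), TBC1D14 for tnnt2a (0.894) and cacnb2a, a calcium channel subunit gene, for nppa (0.984). Of the other regulators it was cldn23.1 for gata4 (0.946), PTGS2 for gata5 (0.986), GDNF for hand2 (0.956) and zgc:162872 for tbx5a (0.855). As deviations from the group means, nkx2.5 and ENSDARG00000079564 had the highest positive r between any of the 12 IDs, 0.706. Several negative values were larger in size, such as -0.885 for gata4 with gata5 and -0.843 for ENSDARG00000079564 with ENSDARG00000079782. The points are libraries that share clutches, and the values are descriptions over 12 libraries without a test.

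Other genes of the heart were read from 6 lists with 81 IDs besides those above, of which 77 were tested. In mon against siblings 0 of 77 were called at 22 hpf and 1 at 30 hpf (edgeR over all genes), beside 0.445% and 0.79% of all genes. The counts at an unadjusted p under 0.05 were 4 (5.19%, beside 4.29% of all genes) and 5 (6.49%, beside 5.56%). With clutch as a block the calls were 2 at 22 hpf, both lower, and 7 at 30 hpf, 3 higher and 4 lower, where the block called 1.48% and 3.09% of all genes. Median log2 fold changes over the 77 were -0.04 and 0.00.

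Of 13 other sarcomere genes none was called at either stage. Titin, the giant spring protein of heart and skeletal muscle, is coded by 2 IDs under TTN. The first, ENSDARG00000000563, had the smallest p of the list at 22 hpf, with 6100, 5356 and 5790 CPM in mon and 5238, 4189 and 4577 CPM in siblings. Its mon libraries lay above all sibling libraries (log2 0.30 ± 0.13, adjusted p from edgeR of 1.0), where 8.45% of all genes had groups without overlap. The second, ENSDARG00000028213, had a log2 fold change of 0.27 ± 0.13. A light chain gene of heart muscle, cmlc1, averaged 9.56 ± 2.05 CPM in mon against 11.7 ± 0.839 CPM in siblings at 22 hpf (SD, n = 3; log2 -0.29 ± 0.14, edgeR, adjusted p = 1.0). It rose with stage, by 0.56 ± 0.14 in siblings and 0.77 ± 0.14 in mon. The smallest p of the list at 30 hpf was that of myl4, an atrial light chain gene in mammals (log2 0.45 ± 0.30, adjusted p from edgeR of 1.0). The list median was -0.02 at 22 hpf and 0.06 at 30 hpf. The summed level of the list was 11472 to 12862 CPM in mon and 9214 to 11197 CPM in siblings at 22 hpf, without overlap, and the groups overlapped at 30 hpf. Most of this sum is the 2 TTN IDs, with means at 22 hpf of 5748 and 5823 CPM in mon and 4668 and 4825 CPM in siblings. It is therefore a level of titin more than of the list. None of 13 genes of calcium cycling and conduction was called, with medians of -0.12 and -0.05. Their summed level at 22 hpf was 106 to 112 CPM in mon and 115 to 120 CPM in siblings, without overlap, and the groups overlapped at 30 hpf. The smallest p was that of SLC8A1, a sodium-calcium exchanger, at 22 hpf (log2 -0.30 ± 0.16) and of the potassium channel gene kcnh6a at 30 hpf (0.27 ± 0.19), with an adjusted p from edgeR of 1.0 for both. The SLC8A1 value is that of ENSDARG00000013422, 1 of 2 IDs that the listed name slc8a1a could stand for.

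Of 19 other cardiac regulators none was called. GATA6, nkx2.7 and TBX20, singled out after their values were seen, had log2 fold changes of 0.04 ± 0.08, -0.18 ± 0.22 and -0.11 ± 0.18 at 22 hpf. At 30 hpf they were -0.01 ± 0.08, 0.30 ± 0.24 and -0.17 ± 0.18. The GATA cofactor ZFPM1, which also works with gata1a in red cell precursors, averaged 21.3 ± 2.80 CPM in mon against 26.9 ± 4.05 CPM in siblings at 22 hpf, and at 21.3 ± 0.832 and 27.3 ± 2.19 CPM at 30 hpf (SD, n = 3). It was called lower at both stages when clutch was a block (adjusted p from edgeR of 0.0176 and 0.00427) and not without the block (0.72 and 0.44). The homeobox gene meis2b was called lower at 30 hpf with the block as well (log2 -0.17, adjusted p from edgeR of 0.0436) and not without it (0.948).

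In the list of endocardium, valve and flow 1 of 20 genes was called at 30 hpf and 0 at 22 hpf. That gene was FN1 (ENSDARG00000006526), a fibronectin, a matrix protein made by many embryonic tissues besides the heart. At 22 hpf it averaged 563 ± 49.3 CPM in mon against 533 ± 38.5 CPM in siblings (SD, n = 3). At 30 hpf its levels were 222, 192 and 196 CPM in mon and 96.9, 84.4 and 90.6 CPM in siblings, with no overlap. Its log2 fold change was 0.08 ± 0.08 at 22 hpf and 1.16 ± 0.08 at 30 hpf (edgeR, adjusted p = 1.0 and 2.2e-07), and the difference between these was called (1.08 ± 0.11, adjusted p = 0.000167).

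The flow-responsive gene klf2a, which endothelial and endocardial cells raise when blood streams past them, is given because of this role and was chosen after its values were seen. It averaged 5.92 ± 0.830 CPM in mon against 6.54 ± 0.667 CPM in siblings at 22 hpf, and at 6.53 ± 0.502 and 7.16 ± 0.307 CPM at 30 hpf (SD, n = 3). Its log2 fold changes, -0.15 ± 0.16 and -0.13 ± 0.16, were not called (edgeR, adjusted p = 1.0 for both). The related klf2b had -0.25 and -0.17, also not called. The proteoglycan gene vcana, active in the developing heart, had a log2 fold change of -0.34 ± 0.15 at 22 hpf that was called with the block (adjusted p from edgeR of 0.00189) and not without it (1.0). The same held at 30 hpf for the gene NOTCH1 (ENSDARG00000103554) of the Notch receptor family, with a log2 fold change of -0.18 ± 0.04 (1.2e-05 with the block and 0.0672 without it). The other ID under NOTCH1, ENSDARG00000052094, had -0.10 ± 0.05 and was called in neither fit (adjusted p from edgeR of 0.079 with the block and 0.954 without it). The listed name notch1b was not tied to 1 of these IDs.

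Of 7 genes of natriuretic peptides, their receptors and stretch, none was called. The clearance receptor NPR3, which removes natriuretic peptides, averaged 26.2 ± 1.98 CPM in mon against 20.0 ± 1.18 CPM in siblings at 30 hpf (SD, n = 3; log2 0.39 ± 0.09). That value was called with the block (adjusted p from edgeR of 0.00139) and not without it (0.075). NPR3 had the smallest p of the list at 22 hpf too, with a log2 fold change of -0.15 ± 0.09, called in neither fit. The difference between the stages, 0.54 ± 0.13, was called with the block (adjusted p from edgeR of 0.00714) and not without it (0.439). None of 5 epicardial genes was called, and the smallest p was that of TCF21 at 22 hpf (log2 0.73 ± 0.42) and WT1 at 30 hpf (0.33 ± 0.22), both transcription factors of the epicardium.

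**Figure D5:**
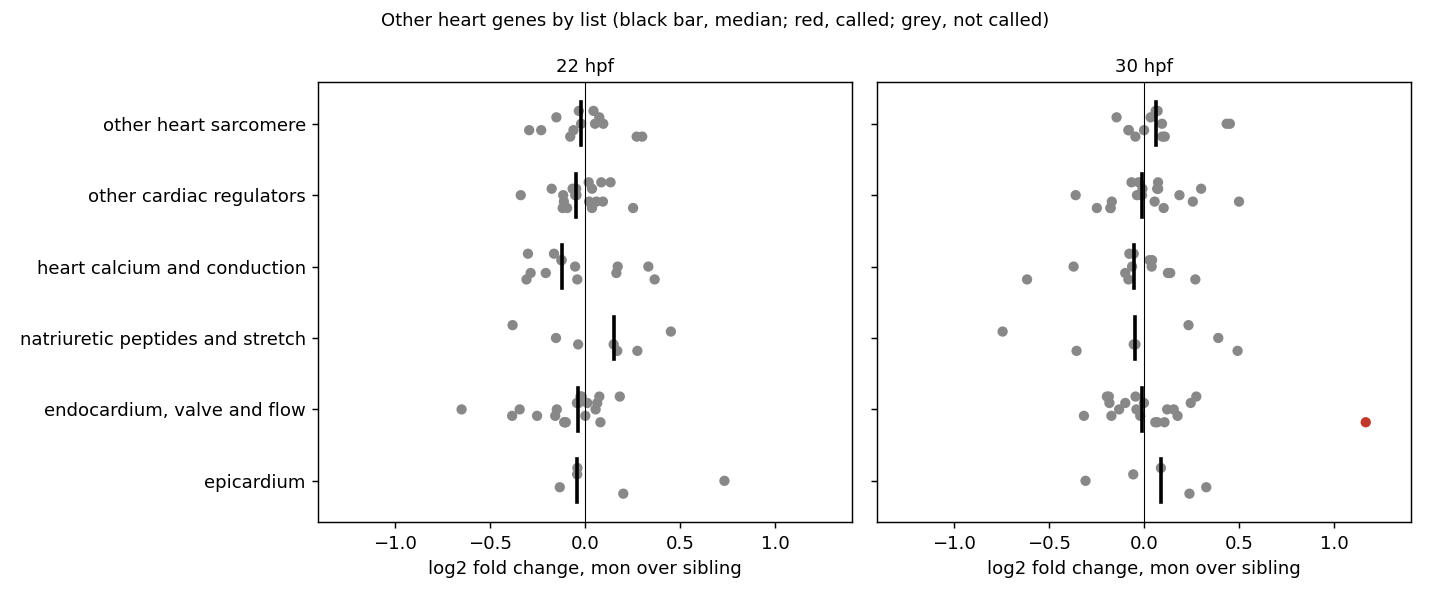
Log2 fold change of mon over sibling at 22 hpf (left) and 30 hpf (right) for the 77 tested genes of 6 further heart lists, 1 point per gene, with list medians as black bars. Points are spread vertically only to keep them apart, and the 1 gene called, FN1 at 30 hpf, is red.

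Other cell types of the embryo were read through their markers. The skeletal muscle list, with 12 genes, summed to 1821 to 2163 CPM in mon and 1817 to 2167 CPM in siblings at 22 hpf. In the 4-group fit 0 of 12 were called at either stage. With clutch as a block 0 of 12 were called at 22 hpf and 2 at 30 hpf, both lower in mon. The block called 1.48% and 3.09% of all genes at these stages. Its summed level at 30 hpf was 11972 to 12897 CPM in mon and 12506 to 13053 CPM in siblings. The 8 endothelial markers summed to 162 to 177 CPM in mon and 179 to 188 CPM in siblings at 22 hpf, the stage at which the mon libraries of ENSDARG00000079564 and nkx2.5 lay below the sibling libraries and neither gene was called in the 4-group fit. None of the endothelial markers was called (1 of 8 at an unadjusted p under 0.05 at 22 hpf, beside 4.29% of all genes). Their part in those values was not tested. The fin bud list, of a tissue that also uses tbx5a and hand2, had 7 genes, of which 3 were called lower in mon at 30 hpf. Their log2 fold changes were -1.78 ± 0.13 for and1, -2.07 ± 0.20 for and2 and -3.07 ± 0.38 for and3 (adjusted p from edgeR of 3.5e-07, 9.81e-06 and 0.000145). The genes and1, and2 and and3 code for actinodins, structural proteins of the fin fold. In whole embryos their levels are therefore not those of the pectoral fin bud alone. No other gene of the list was called at 30 hpf. The list median at 30 hpf was 0.05 and its highest log2 fold change 0.47. Its summed level at 30 hpf was 69.7 to 75.4 CPM in mon and 133 to 167 CPM in siblings, without overlap. The mean of and1 was then 22.7 CPM in mon and 78.2 CPM in siblings, so and1 weighs heavily in this sum. At 22 hpf none was called, with -0.70 ± 0.25 for and1, -1.97 ± 0.66 for and2 and 2.17 ± 0.72 for and3. The gene and3 then stood at 0.145, 0.454 and 0.376 CPM in mon and 0, 0.0498 and 0.154 CPM in siblings, and the difference of its effect between stages was called (log2 -5.25 ± 0.80, adjusted p from edgeR of 0.00783).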

How the data were processed

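Whole-embryo RNA of 12 libraries, depleted of rRNA and strand-specific, was counted by gene, and the authors deposited the raw counts as 1 table. The submitters' processing notes name GRCz11, HTSeq, Cufflinks 2.2.1, TopHat2 2.0.11, cutadapt and FastQC, without their roles. Neither annotation release nor strand setting nor filters are given in the sources used here. Symbols were matched to 29201 of 32520 IDs, and older names came from the RefSeq gene table of GRCz12tu. Gene lengths were not used, so levels are not compared between genes. The 10 names, the lists and the tests were chosen with earlier results of these data known.

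Counts of the 21778 genes kept by filterByExpr were scaled by TMM and fitted in edgeR 4.0.16 (R 4.3.3), with robust quasi-likelihood, the 4 groups and all 12 libraries, and 8 residual degrees of freedom. The procedure was tested on simulated data. Adjusted p-values (Benjamini-Hochberg) cover every tested gene. Standard errors are the size of the log2 fold change divided by the square root of F, and 95% intervals use the t distribution of the fit. Alternatives were DESeq2 1.42.0, limma-voom (limma 3.58.1), DESeq2 size factors, no filter, leaving out libraries, and clutch as a block. Libraries pair by clutch, per the labels: deviations from group means correlated at 0.507 to 0.695 in the 6 same-clutch pairs, and at most at -0.194 between clutches. The deviations of a group cancel for each gene, so positive same-clutch values push those between clutches to negative ones. The latter are no separate support. The lowest chi-square per gene between any 2 libraries of a group was 6.46, so none was a repeat. Named genes were the 9 genes and the genes called in a list in either comparison of mon with siblings or their difference. Up to 3 genes of smallest p in each heart list were added. Of these the text gives the first at each stage, and also cmlc1, klf2b, meis2b, the second TTN ID and the NOTCH1 IDs. The latter were picked with their values known. For each of the 9 the genes of highest correlation over the libraries were named too. Genes outside this rule are said to be chosen after their values were seen or for their role.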

Additional observations from a re-analysis of the deposited data

Results flagged for a closer look

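The effect of mon differed between the stages in 4 genes of the lists, by the test of the difference itself in edgeR. For FN1 (ENSDARG00000006526), a fibronectin gene, the difference was 1.08 ± 0.11 (adjusted p of 0.000167), and mon was higher than siblings in 3 of 3 clutches at 30 hpf. For the actinodin gene and3 it was -5.25 ± 0.80 (adjusted p of 0.00783), from levels of at most 0.454 CPM in any library at 22 hpf. The globin genes hbae3 and hbbe3, markers of red blood cells, had log2 differences of -4.59 ± 0.31 (adjusted p of 0.000235) and -3.29 ± 0.43 (adjusted p of 0.0136), with mon lower in 3 of 3 clutches at both stages. All 4 values are on the log2 scale and their cause was not tested.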

How the results depend on the processing

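Over 815 refits of single log2 fold changes of the 12 IDs, 752 kept direction and side of the threshold, 4 lost a call, 6 gained one and 53 changed sign, none of the last called in the 4-group fit. The count of the 9 genes called in mon against siblings was 0 at both stages, and for the difference, under every alternative.

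Genes called over the whole table moved more. At 22 hpf 97 were called, against 157 by DESeq2, 322 with the replicate block of clutch, 60 without clutch 9 and 63 from the 6 libraries of the stage. At 30 hpf 172 were called, against 673 with the block and 95 without clutch 9. For the difference between stages 19 were called, against 33 by DESeq2, 105 with the block and 9 without clutch 9. Of the other heart genes the block called 2 at 22 hpf (0 without it), 7 at 30 hpf (1) and 2 for the difference (1). The 63, 60, 95 and 9 rest on fewer libraries, and the cause of the other moves was not tested.

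Sign changes were as follows. For tbx5a at 22 hpf the log2 fold change was 0.000236 with DESeq2, 0.0155 with limma-voom, 0.000435 with DESeq2 size factors and 0.0109 with the block. For gata5 at 30 hpf it was -0.0015 with limma-voom and -0.000955 without clutch 9. Also without clutch 9, values at 30 hpf were 0.085 for myl7, 0.17 for nppa and -0.10 for hand2. With the block, clutch 9 alone links the stages. Stage changes were then 0.00238 for tbx5a in siblings, and -0.014 for tnnt2a and -0.12 for nkx2.5 in mon.

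Leaving out 1 library at a time, the log2 fold change at 22 hpf ran from -0.021 to 0.052 for myh6, -1.80 to 0.17 for nppa, -0.15 to 0.17 for tbx5a, -0.75 to 0.084 for ENSDARG00000079782 and -0.19 to 0.22 for ENSDARG00000114031. At 30 hpf it ran from -0.15 to 0.085 for myl7, -0.082 to 0.047 for myh6, -0.66 to 0.17 for nppa, -0.069 to 0.049 for gata5, -0.068 to 0.18 for hand2 and -0.00899 to 0.40 for ENSDARG00000114031. The difference between stages ran from -0.059 to 0.18 for myl7, -0.092 to 0.037 for myh6, -0.20 to 0.12 for tnnt2a, -0.31 to 1.66 for nppa, -0.25 to 0.58 for ENSDARG00000079782 and -0.068 to 0.36 for ENSDARG00000114031. The stage change of tbx5a in siblings ran from -0.23 to 0.094. The log2 ratio of ENSDARG00000079782 to myh6 in mon minus siblings ran from -0.65 to 0.046 at 22 hpf and -0.27 to 0.00184 at 30 hpf. Depth limits nppa (1 to 7 counts) and ENSDARG00000079782 (11 to 35 counts) at 22 hpf.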
